A study of Homo sapiens with 32 samples.

Results

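The genes described here are the zinc finger genes of human chromosome 19 that carry a plain ZNF symbol. They were chosen as protein coding genes on chromosome 19 of GRCh38 whose symbol is ZNF followed by digits and at most 1 letter, with at least 10 reads in at least 6 of the 32 libraries. Of 247 genes with such a symbol and position, 190 met the read rule and 57 did not, out of 60662 gene IDs counted. The rule used no difference between treatments. All libraries are poly(A)-selected RNA sequencing of HEK293T, a human embryonic kidney line made with adenovirus and SV40 sequences, and the series asks whether N6-methyladenosine (m6A) in coding regions leads to mRNA decay that depends on translation. STM2457, an inhibitor of the m6A methyltransferase METTL3, was given at 20 µM. In the knockdown experiment, cells received YTHDF2 siRNA at 20 nM with STM2457 for 6 h, YTHDF2 siRNA with DMSO for 6 h, STM2457 for 6 h without this siRNA, or DMSO for 6 h without it, with 3 libraries each. YTHDF2 is a reader protein that binds m6A and promotes decay of the bound mRNA. Libraries that did not get YTHDF2 siRNA are named WT in the labels, with no word on a control siRNA. In a second experiment, cells received STM2457 or DMSO for 9 h, with 4 libraries each. In the emetine experiment, STM2457 or DMSO was given for 6 h, and during the last 2 h either emetine at 1.8 µM, which blocks translation elongation, or DMSO was present, with 3 libraries in each of the 4 groups.

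Most of these genes encode KRAB zinc finger proteins, transcription repressors that bind DNA through an array of C2H2 zinc fingers and recruit TRIM28 and the histone methyltransferase SETDB1 through the KRAB domain. Many silence transposable elements, and the human genes lie in tandem clusters on chromosome 19 that grew by duplication. The finger array is usually encoded by a single long last coding exon, and neighbouring fingers are joined by a short conserved linker. m6A sites themselves were not measured in these libraries, which give the abundance of each mRNA.

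The repeat unit that the members share is shown by 1 linker with the finger after it from 4 genes that return in the results below, read from the coding sequences of GENCODE 29 on GRCh38. ZNF543 lies on the plus strand at chr19:57328882-57328965, ZNF420 on the plus strand at chr19:37127559-37127642, ZNF585A on the minus strand at chr19:37152687-37152770, and ZNF850 on the minus strand at chr19:36750047-36750130. Capitals mark GAGAAACC, the letters searched for on the coding strand, which encode part of the linker.
ZNF543: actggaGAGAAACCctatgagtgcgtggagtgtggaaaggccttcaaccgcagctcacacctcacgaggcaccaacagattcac
ZNF420: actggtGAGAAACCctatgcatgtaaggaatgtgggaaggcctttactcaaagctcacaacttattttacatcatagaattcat
ZNF585A: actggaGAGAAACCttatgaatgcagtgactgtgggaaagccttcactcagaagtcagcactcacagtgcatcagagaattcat
ZNF850: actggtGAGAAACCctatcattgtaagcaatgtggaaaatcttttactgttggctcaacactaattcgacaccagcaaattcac
GAGAAACC occurs 3 times in the coding sequence of ZNF543, 11 times in ZNF420, 7 times in ZNF585A and 24 times in ZNF850. At least 1 copy was present in 145 of the 190 members (76.3%), against 53.6% of ZNF genes on other chromosomes and 5.02% of the other coding genes. ZNF256, ZNF304, ZNF551, ZNF358 and ZNF428, which also return below, have no copy.

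GGACT is a common spelling of the sequence in which m6A is written, with the methylated base being its A. One GGACT with 15 bases on either side is shown for 5 members whose mRNA moved most or in opposite directions with STM2457, on the coding strand and with GGACT in capitals. Positions are chr19:58129371-58129405 on the minus strand for ZNF329, chr19:37091039-37091073 on the plus strand for ZNF420, chr19:57605746-57605780 on the plus strand for ZNF530, chr19:58456297-58456331 on the plus strand for ZNF324B and chr19:44340464-44340498 on the minus strand for ZNF112.
ZNF329: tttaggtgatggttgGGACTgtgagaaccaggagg
ZNF420: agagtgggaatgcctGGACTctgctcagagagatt
ZNF530: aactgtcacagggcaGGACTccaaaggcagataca
ZNF324B: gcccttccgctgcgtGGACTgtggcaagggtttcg
ZNF112: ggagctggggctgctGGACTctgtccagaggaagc
The coding sequences hold 4 copies in ZNF329 and in ZNF530 and 2 in ZNF420, ZNF324B and ZNF112, so genes with higher and with lower mRNA both carry it. GGACT stood in the coding sequence of 148 members (77.9%), close to the 75.8% of other coding genes, and its median density was 0.694 per kilobase in the members against 0.992 in other coding genes. A match is a description of the letters, not evidence of methylation there, and the 2 motifs cannot overlap. The members' coding sequences are built differently from those of other genes. Their longest coding exon made up a median of 87.3% of the coding sequence, against 25.6% in other coding genes, and they had a median of 4 coding exons against 9.

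The libraries held 37694945 to 42303951 gene reads in the knockdown experiment, 22510323 to 34677704 in the 9 h experiment and 21781514 to 28053353 in the emetine experiment. Levels are given as CPM, reads scaled to a common total of the reads on genes past the low-count filter, adjusted by TMM factors. YTHDF2 averaged 43.3 ± 1.14 CPM with its siRNA and DMSO and 178 ± 3.91 CPM with DMSO alone (SD, n = 3 each). YTHDF2 was lower in every siRNA library than in every library without it under the same agent. It stood at 76.9 ± 3.28 CPM with siRNA and STM2457 and at 618 ± 36.8 CPM with STM2457 alone, so STM2457 moved the level of the knocked-down gene too. All 9 markers of HEK293T and embryonic kidney were above 1 CPM, with a summed level of 775 to 1443 CPM across libraries. Of the markers of other cells, 2 of 7 for fibroblasts, 1 of 4 for keratin epithelium, 1 of 5 for blood and 0 of 4 for hepatocytes reached 1 CPM. In bulk RNA, fewer cells of a type and less RNA per cell cannot be told apart.

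Most members had low mRNA levels. Their mean level over all libraries ran from 0.206 to 238 CPM with a median of 9.07 CPM, or a median of 1.62 CPM per kilobase of exon. ZNF146, a protein made almost only of zinc fingers, was the highest at 57.5 CPM per kilobase, ahead of ZNF581 at 20.7 and ZNF428 at 20.3. ZNF146 alone made up 5.67% to 12.1% of the summed CPM of the members. Exons of 108 members share bases with another annotated gene, 65 with one on the same strand and 62 with one on the opposite strand. Of the genes treated at length below, ZNF404, ZNF551, ZNF112, ZNF772, ZNF585A, ZNF780A, ZNF358 and ZNF773 share bases with another annotated gene on their own strand, and ZNF420, ZNF460, ZNF260, ZNF304, ZNF628, ZNF480, ZNF358 and ZNF780A with one on the opposite strand. Some further cases are named beside their values, and a gene without such a mention may still share bases. Values of genes that share bases may include reads of a neighbour, since no source used here gives the strand setting of the counting.

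All members together took up a small part of the reads that grew with each treatment. In the emetine experiment they held 0.387% ± 0.000802 of gene reads with STM2457 and emetine, 0.366% ± 0.00675 with emetine alone, 0.199% ± 0.00449 with STM2457 alone and 0.171% ± 0.00264 with DMSO (SD, n = 3 each). In the knockdown experiment the share was 0.288% ± 0.00811 with siRNA and STM2457, 0.263% ± 0.00614 with siRNA and DMSO, 0.224% ± 0.00342 with STM2457 and 0.186% ± 0.00763 with DMSO (SD, n = 3 each). After 9 h it was 0.280% ± 0.00431 with STM2457 and 0.226% ± 0.00309 with DMSO (SD, n = 4 each). Emetine multiplied the share by 2.14 and YTHDF2 siRNA by 1.41, while STM2457 multiplied it by 1.16 to 1.24 in the 3 experiments where it was given alone. For ZNF genes on other chromosomes the emetine ratio was 1.56 and the siRNA ratio 1.16, and the STM2457 ratios were 1.27 to 1.29.

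**Figure D1:**
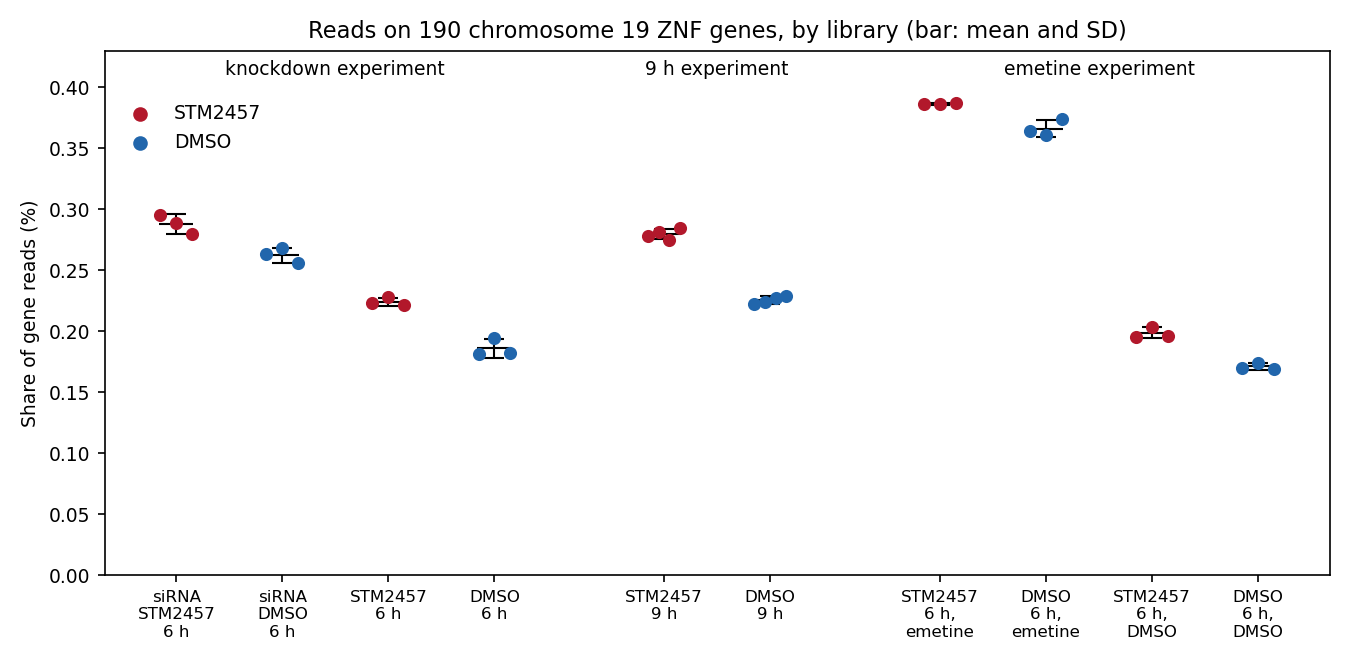
Share of gene reads (percent, y axis) that fell on the 190 chromosome 19 ZNF genes, 1 point per library, by treatment group in the 3 experiments. The 3 libraries with emetine and no STM2457 average 0.366%, against 0.171% in the 3 libraries of the same experiment with DMSO only.

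Emetine for 2 h gave the broadest change. Of 181 members tested, 165 rose and 2 fell, where 33.9% of all genes tested rose and 28.3% fell in edgeR's quasi-likelihood test at an adjusted p under 0.05. The median member was 2.29-fold higher (log2 1.19), with quartiles of 1.80-fold and 3.03-fold, and 116 members at least doubled, as did 978 of all 15817 genes tested, against a median log2 change of 0.04 over all genes. Among ZNF genes on other chromosomes 193 rose and 10 fell of 234, with a median log2 change of 0.69, and among the other protein coding genes of chromosome 19, 246 rose and 266 fell of 744. With ribosomal protein gene scaling the members' median was 1.63 (all genes 0.47), and with spike-in scaling 1.68 (all genes 0.52). These scalings called 72.6% and 73.1% of all genes higher, and the members' median stayed 1.16 above that of all genes with both.

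The 6 members with the largest emetine rises among those named by the rule lay close together near the end of the long arm. ZNF416, at 57571566 to 57578927 on the minus strand, had 25.95, 26.02 and 27.9 CPM with emetine and 4.91, 4.15 and 4.76 CPM with DMSO, a log2 change of 2.53 (SE 0.08, edgeR adjusted p = 1.03e-22). Each emetine library stood far above each DMSO library. ZNF416 shares exon bases with ZIK1, another zinc finger gene, and its reads may include some of that gene. ZNF551, at 57681969 to 57717301 on the plus strand, had 39.4, 41.2 and 40.4 CPM with emetine and 8.06, 8.97 and 9.48 CPM with DMSO, a log2 change of 2.19 (SE 0.07, edgeR adjusted p = 4.29e-24). ZNF256, at 57940833 to 57947675 on the minus strand, had 8.26, 9.70 and 10.4 CPM with emetine and 1.84, 1.76 and 1.71 CPM with DMSO, a log2 change of 2.41 (SE 0.13, edgeR adjusted p = 4.27e-17). These groups too did not overlap. ZNF543, whose finger is printed above, had 15.9, 14.6 and 16.99 CPM with emetine and 4.08, 3.48 and 3.38 CPM with DMSO, a log2 change of 2.12. ZNF304 averaged 16.9 ± 1.32 CPM with emetine and 3.43 ± 0.450 CPM with DMSO, and ZNF773 averaged 14.96 ± 0.318 CPM with emetine and 3.40 ± 0.375 CPM with DMSO (SD, n = 3 each).

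Both members that fell with emetine have no GAGAAACC and no KRAB pattern. Neither lack sets them apart. ZNF256, ZNF304 and ZNF551, which rose, have no GAGAAACC either, and 47 of 56 members without the pattern rose. ZNF358 had 23.5, 21.9 and 19.8 CPM with emetine and 29.1, 30.5 and 25.02 CPM with DMSO, a log2 change of -0.38 that became 0.056 with ribosomal protein gene scaling and 0.10 with spike-in scaling. ZNF428, which had 1 finger by the pattern used, had 31.4, 31.5 and 33.7 CPM with emetine and 40.6, 42.2 and 38.3 CPM with DMSO, a log2 change of -0.33 that became 0.11 and 0.16 with the same scalings. ZNF428 shares exon bases with SRRM5. Their fall is therefore a fall relative to other mRNAs, and its direction depends on what is held constant. The 14 members that changed in neither direction by the test were ZNF285, ZNF320, ZNF404, ZNF414, ZNF429, ZNF524, ZNF564, ZNF580, ZNF599, ZNF726, ZNF738, ZNF83, ZNF865 and ZNF880.

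**Figure D2:**
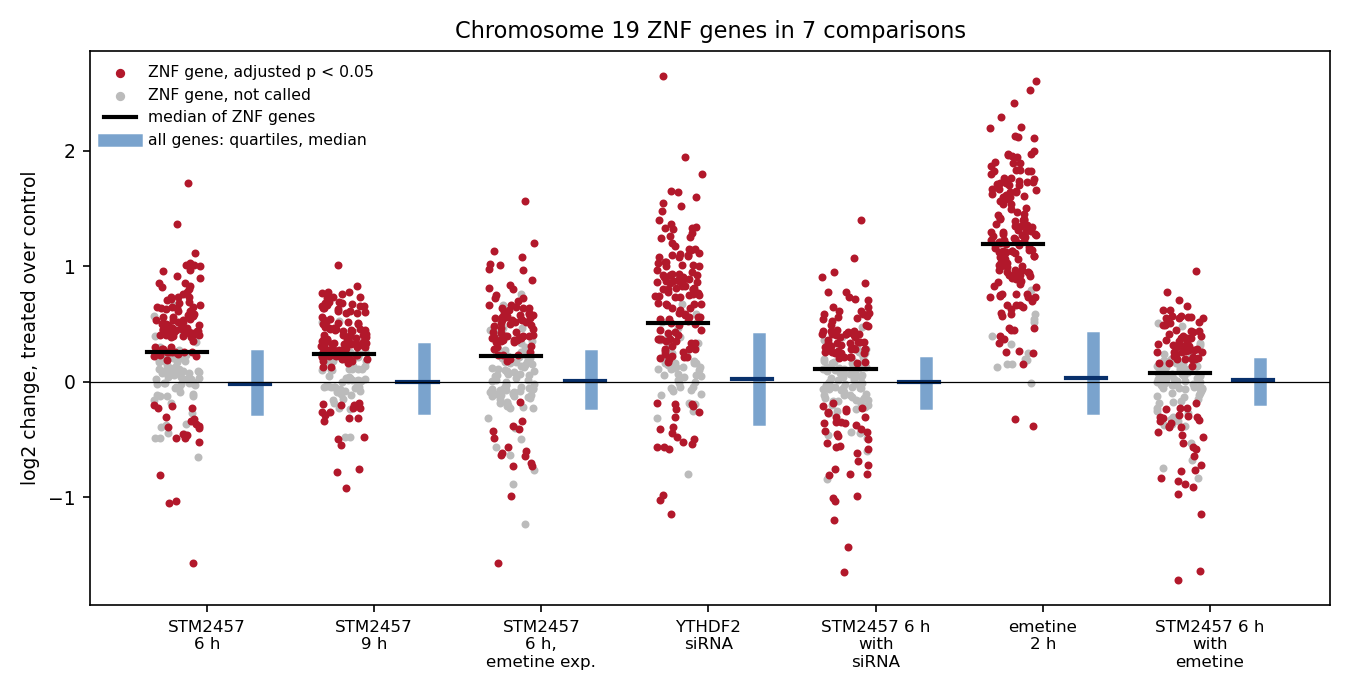
Log2 change (y axis) of each member in the 7 comparisons of 2 groups, 1 point per member, with the quartiles over all genes tested. With emetine the median member stands at 1.19 against 0.04 for all genes, while the STM2457 medians at 6 h (0.26), with siRNA (0.11) and with emetine (0.07) turn to -0.0077, -0.083 and -0.035 with ribosomal protein gene scaling.

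YTHDF2 siRNA raised the next largest number. Of 188 members tested, 120 rose and 20 fell with siRNA and DMSO relative to DMSO alone, where 33.1% of all genes rose and 29.3% fell by edgeR. The median log2 change was 0.51, or 1.42-fold, with quartiles of 1.09-fold and 1.86-fold, against 0.02 over all genes. At least 2-fold changes were seen upward in 36 members and downward in 2, ZNF440 and ZNF700, the second named here after its value was seen, against 740 genes upward and 963 downward of all 16662 tested. ZNF genes on other chromosomes gave 131 higher and 38 lower of 234 with a median of 0.28, and the other coding genes of chromosome 19 gave 351 higher and 145 lower of 774 with a median of 0.15.

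ZNF585A, a KRAB zinc finger gene at 37106734 to 37172741 on the minus strand, had 18.1, 17.4 and 16.7 CPM with siRNA and 4.61, 4.21 and 4.77 CPM with DMSO (log2 change 1.94, SE 0.07, edgeR adjusted p = 1.87e-13). With STM2457 added it stood close to these levels, at 17.8 ± 0.491 CPM with siRNA and STM2457 and 4.70 ± 0.127 CPM with STM2457 alone (SD, n = 3 each). The gene shares exon bases with AC012309.1 on its own strand, so its reads may include some of that gene, and its span crosses ZNF420 on the other strand without shared exon bases. ZNF404 had the largest siRNA change among the members named by the rule, with 4.37, 3.85 and 4.39 CPM with siRNA and 0.846, 0.541 and 0.623 CPM with DMSO (log2 change 2.65, SE 0.19, edgeR adjusted p = 1.14e-09). It was also among the 14 members that did not pass the test with emetine, where it averaged 1.00 ± 0.0965 CPM against 0.761 ± 0.0764 CPM with DMSO. ZNF211 had 26.5, 25.5 and 26.1 CPM with siRNA and 8.19, 8.79 and 8.09 CPM with DMSO (log2 change 1.64, SE 0.06, edgeR adjusted p = 3.15e-13). In each of these genes all siRNA libraries were above all DMSO libraries. ZNF530 rose by 1.80, ZNF329 by 1.65 and ZNF790 by 1.60 on the log2 scale.

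The falls with YTHDF2 siRNA were fewer and smaller. ZNF440, at 11814284 to 11835201 on the plus strand, had 3.85, 4.10 and 3.42 CPM with siRNA and 7.44, 7.90 and 7.90 CPM with DMSO (log2 change -1.03, SE 0.09, edgeR adjusted p = 2.29e-08). ZNF784 had 2.87, 2.61 and 2.56 CPM with siRNA and 5.48, 5.64 and 4.77 CPM with DMSO (log2 change -0.98, SE 0.11, edgeR adjusted p = 3.36e-07). Neither gene's groups overlapped. ZNF780A had 12.9, 13.3 and 10.8 CPM with siRNA and 18.1, 18.7 and 18.7 CPM with DMSO, a log2 change of -0.58. ZNF473, which takes part in processing the 3′ ends of histone mRNAs, fell by 0.50, and ZNF536, a repressor of neuronal differentiation, by 0.48. ZNF440 stood in a gene cluster with few siRNA rises, as described below.

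The knockdown and emetine experiments share no library, so their members can be set side by side. Of 181 members tested in both, 118 rose with siRNA and 165 with emetine, and 113 did both. These are 95.8% of the siRNA list and 68.5% of the emetine list, while 91.2% of all members tested in both rose with emetine, so the siRNA list was not far from what the emetine result holds for any member. Of 182 members tested in both, 78 rose with siRNA and with STM2457 for 9 h, which is 65.5% of the siRNA list and 73.6% of the 9 h list, where 65.4% of the members tested in both rose with siRNA.

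STM2457 alone raised members in 3 separate experiments. At 6 h in the knockdown experiment 96 of 188 members rose and 20 fell, where 22.9% of all genes rose and 22.1% fell by edgeR. At 9 h 106 of 184 rose and 18 fell (all genes 32.2% and 32.5%), and at 6 h in the emetine experiment 75 of 181 rose and 16 fell (all genes 26.0% and 21.9%). The median log2 changes were 0.26, 0.24 and 0.23, or 1.19-fold, 1.18-fold and 1.17-fold, against -0.02, 0.00 and 0.00 over all genes. The 6 h result of the knockdown experiment depends on the scaling: the median was -0.0077 with ribosomal protein gene scaling, where 42 rose and 34 fell (all genes 7.47% and 44.2%), and -0.11 with spike-in scaling, where 13 rose and 26 fell (all genes 2.39% and 30.1%). In this comparison the scalings shifted the all-gene median by -0.26 and -0.37, and relative to all genes the members' median stayed 0.27 and 0.28 higher. With ribosomal protein gene scaling 133 members rose and 5 fell at 9 h (all genes 47.6% and 15.2%), and 54 rose and 30 fell at 6 h in the emetine experiment (all genes 13.9% and 42.3%). The median of the emetine experiment shrank to 0.053 with that scaling. It was 0.092 with spike-in scaling, where 53 rose and 23 fell (all genes 13.2% and 29.6%). Relative to all genes it stayed 0.22 higher with both. ZNF genes on other chromosomes had medians of 0.21, 0.27 and 0.22, close to those of the members. The other coding genes of chromosome 19 gave 131 higher and 256 lower of 774 with a median of -0.12 in the knockdown experiment at 6 h, and 199 higher and 330 lower of 752 with a median of -0.09 at 9 h. In the emetine experiment they gave 193 higher and 192 lower of 744 with a median of -0.012.

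Among 180 members tested in all 3 experiments, 69 (38.3%) rose in each and 6 (3.33%) fell in each, against 16.3% and 11.1% of 15252 genes tested in all 3. ZNF329, at 58126252 to 58155110 on the minus strand, had 4.98, 5.02 and 6.25 CPM with STM2457 for 6 h and 1.84, 2.47 and 1.99 CPM with DMSO in the knockdown experiment (log2 change 1.36, SE 0.14, edgeR adjusted p = 1.54e-07). After 9 h it had 6.72, 7.18, 6.40 and 6.97 CPM with STM2457 and 4.56, 3.76, 4.04 and 3.78 CPM with DMSO. In the emetine experiment it had 5.71, 6.11 and 6.01 CPM with STM2457 and 2.64, 2.69 and 2.40 CPM with DMSO. The groups stood apart in all 3 experiments, and the change at 9 h, 0.76 on the log2 scale, was the smallest of them. ZNF420, known as a regulator of p53 in DNA damage, had 21.9, 21.0 and 27.1 CPM with STM2457 and 11.2, 12.3 and 11.3 CPM with DMSO at 6 h, a log2 change of 1.01. At 9 h it had 22.7, 21.8, 22.3 and 21.7 CPM with STM2457 and 13.5, 12.4, 13.2 and 14.05 CPM with DMSO, a log2 change of 0.73. ZNF180 averaged 26.01 ± 0.915 CPM with STM2457 and 12.8 ± 1.02 CPM with DMSO at 6 h (SD, n = 3 each), and ZNF461 averaged 8.95 ± 2.27 CPM with STM2457 and 4.14 ± 0.470 CPM with DMSO (SD, n = 3 each). ZNF628, needed in mouse for sperm formation, rose by 0.61 at 9 h and by 1.01 in both 6 h experiments. ZNF146 had 257, 266 and 242 CPM with STM2457 and 159, 165 and 154 CPM with DMSO at 6 h. It shares exon bases with ZNF565.

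ZNF324B, at 58451604 to 58457833 on the plus strand, led the members that fell with STM2457. It had 3.44, 3.89 and 3.00 CPM with STM2457 and 11.1, 10.98 and 8.74 CPM with DMSO at 6 h (log2 change -1.57, SE 0.11, edgeR adjusted p = 1.33e-09). In the emetine experiment it had 4.63, 4.66 and 4.06 CPM with STM2457 and 12.4, 13.9 and 13.3 CPM with DMSO (log2 change -1.57, SE 0.10, edgeR adjusted p = 2.77e-15). At 9 h it had 5.98, 6.03, 6.22 and 7.40 CPM with STM2457 and 10.7, 12.1, 13.3 and 12.3 CPM with DMSO (log2 change -0.92, SE 0.08, edgeR adjusted p = 4.46e-10). All STM2457 libraries stood below all DMSO libraries in each experiment, while YTHDF2 siRNA left the gene at 11.4, 11.2 and 11.7 CPM (log2 change 0.16, edgeR adjusted p = 0.16). ZNF358, ZNF414, ZNF446, ZNF473 and ZNF559 were the other 5 that fell in all 3. ZNF446, a SCAN domain protein, had 6.34, 6.26 and 5.92 CPM with STM2457 and 8.76, 8.63 and 9.27 CPM with DMSO at 6 h. ZNF414 had 8.202, 8.39, 7.64 and 8.09 CPM with STM2457 and 15.4, 12.9, 13.5 and 13.9 CPM with DMSO at 9 h. ZNF446 shares exon bases with SLC27A5 and ZNF324, ZNF473 with VRK3, and ZNF559 with the readthrough gene ZNF559-ZNF177.

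**Figure D3:**
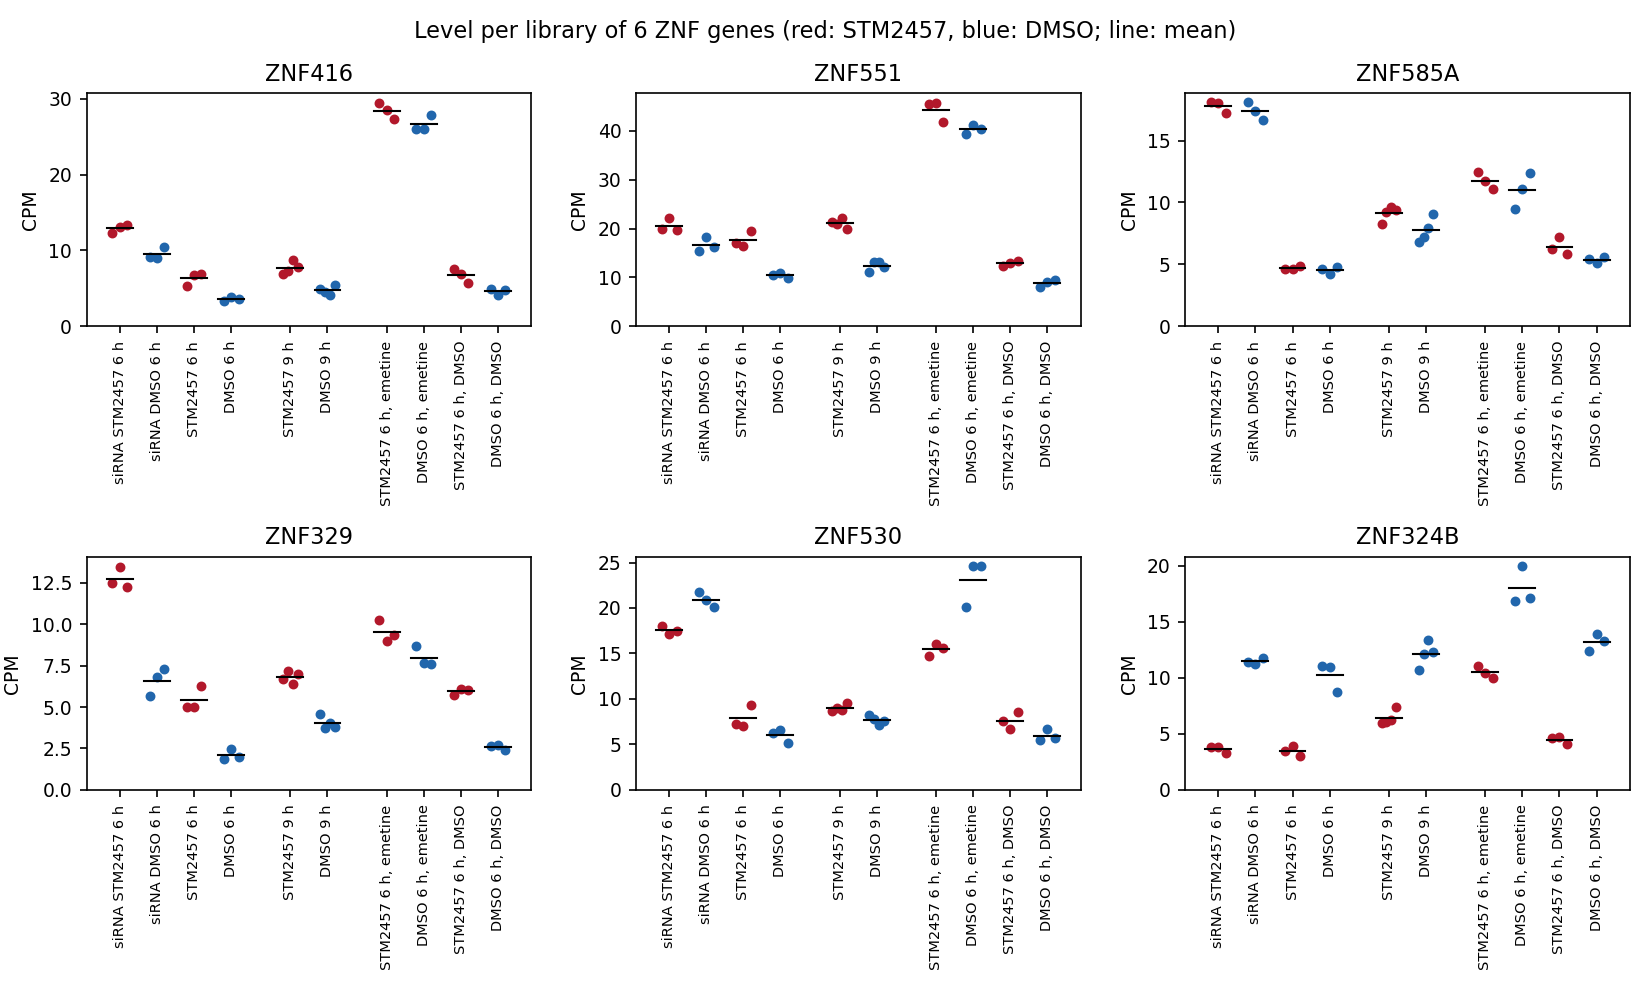
CPM (y axis) of 6 members in every library, grouped by treatment. ZNF324B is lower with STM2457 than with DMSO in each setting, ZNF416 and ZNF551 are highest with emetine, and ZNF585A is highest with YTHDF2 siRNA.

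A small set of members went opposite ways at 9 h and 6 h. ZNF112, ZNF234, ZNF260 and ZNF480 rose with STM2457 at 9 h and fell in both 6 h experiments, and no member did the opposite. How many of all genes did either was not counted, so these numbers do not set the members apart. ZNF112, at 44326555 to 44367217 on the minus strand, had 7.16, 7.41, 7.57 and 7.57 CPM with STM2457 and 5.17, 4.59, 4.80 and 6.37 CPM with DMSO at 9 h, a log2 change of 0.50. At 6 h it had 2.08, 2.704 and 2.54 CPM with STM2457 and 3.98, 4.89 and 3.93 CPM with DMSO (log2 change -0.81, SE 0.14, edgeR adjusted p = 8.5e-05). The groups did not overlap at either time, with STM2457 above DMSO at 9 h and below it at 6 h. ZNF260 averaged 41.3 ± 1.18 CPM with STM2457 and 35.3 ± 1.04 CPM with DMSO at 9 h (SD, n = 4 each), and 17.3 ± 0.163 CPM with STM2457 and 22.5 ± 0.762 CPM with DMSO at 6 h in the knockdown experiment (SD, n = 3 each). The log2 change of ZNF480 was 0.13 at 9 h, against -0.37 and -0.70 at 6 h in the knockdown and emetine experiments, and that of ZNF234 was 0.29 at 9 h, against -0.46 and -0.60 at 6 h. The signed difference between the 9 h and the 6 h log2 change of the knockdown experiment was tested directly. It was positive in 10 members (5.32%), these 4 among them, and negative in 35 (18.6%). By edgeR it was positive in 13.8% and negative in 23.3% of all genes, so both shares were lower among the members. A positive difference includes weaker falls, as for ZNF324B, whose change was -0.92 at 9 h and -1.57 at 6 h. The median difference was -0.09 and turned to 0.38 with ribosomal protein gene scaling, where 104 were higher and 0 lower. That scaling put the all-gene median at 0.44 and called 59.9% of all genes higher, so the members were no higher than other genes there. ZNF112 differed by 1.27 (SE 0.18, edgeR adjusted p = 5.2e-06), ZNF234 by 0.71, ZNF324B by 0.61 and ZNF260 by 0.57. The count of negative differences was 22 without replicate 3 of STM2457 for 6 h, the library with the highest ZNF420, ZNF329 and ZNF461 in its group. The 2 times come from separate experiments, so time and experiment cannot be told apart.

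With YTHDF2 already knocked down, STM2457 raised fewer members, and fewer of all genes as well. Of 188 members tested, 68 rose and 37 fell with siRNA and STM2457 relative to siRNA and DMSO. By edgeR 15.5% of all genes rose and 15.4% fell. The share that rose went from 51.1% without siRNA to 36.2% with it among members, and from 22.9% to 15.5% among all genes. The median was 0.11, against -0.083 with ribosomal protein gene scaling, where 22 rose and 49 fell (all genes 4.22% and 25.5%), and -0.21 with spike-in scaling, where 4 rose and 32 fell (all genes 0.828% and 14.3%). Of the 96 members that STM2457 raised without siRNA, 64 also rose with siRNA, where 36.2% of the members tested did. ZNF283, ZNF45, ZNF530 and ZNF576 rose without siRNA and fell with it, and ZNF45 and ZNF576 are named for this count after their values were seen. Among members named by the rule, the largest falls with siRNA were ZNF324B at -1.65, ZNF559 at -1.20, ZNF260 at -1.04, ZNF780A at -1.01 and ZNF112 at -0.99 on the log2 scale. ZNF559 had 6.71, 5.92 and 6.12 CPM with siRNA and STM2457 and 14.3, 14.5 and 14.2 CPM with siRNA and DMSO. ZNF780A had 6.35, 5.61 and 6.49 CPM with siRNA and STM2457, below all 3 libraries with siRNA and DMSO given above. ZNF628 still rose by 1.07 and ZNF329 by 0.95, with ZNF329 at 12.5, 13.5 and 12.2 CPM with siRNA and STM2457 and 5.66, 6.82 and 7.29 CPM with siRNA and DMSO.

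The STM2457 effect itself differed between siRNA and no siRNA in 27 members (14.4%), all lower with siRNA, where 6.93% of all genes were lower and 1.78% higher by edgeR. Among ZNF genes on other chromosomes it was lower in 52 of 234 (22.2%) and higher in 3, so a lower effect was not particular to the members. No member was higher with siRNA in edgeR, 4 were at an unadjusted p under 0.05, against 59 lower, and DESeq2 called 1. ZNF772, at 57466663 to 57477570 on the minus strand, shows the pattern. It had 6.99, 6.42 and 7.45 CPM with siRNA and STM2457 and 12.9, 11.9 and 11.8 CPM with siRNA and DMSO, but 5.98, 5.23 and 6.38 CPM with STM2457 alone and 5.25, 5.22 and 4.79 CPM with DMSO alone. STM2457 libraries were thus lower with siRNA and level or slightly higher without it, a difference of -1.02 (SE 0.13, edgeR adjusted p = 4.82e-05). ZNF283 differed by -0.91, ZNF559 by -0.87 and ZNF17, which shares exon bases with AC003002.3 on its own strand, by -0.87. These calls are few and unstable in number. The 27 became 5 with ribosomal protein gene scaling, where 0.732% of all genes were lower. With spike-in scaling they became 0, where 0 of all genes were called in either direction. The members' median less that of all genes was -0.18 and -0.19 with these scalings. Leaving out a single library gave 14 to 27, with 16 without DMSO 6 h replicate 1 or replicate 3, 16 without siRNA and DMSO replicate 1, 15 without siRNA and DMSO replicate 2 and 14 without siRNA and STM2457 replicate 3. The count of members higher with siRNA was 1 without DMSO 6 h replicate 3 or STM2457 6 h replicate 1, and 2 without STM2457 6 h replicate 3.

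With translation blocked, STM2457 raised 58 members and lowered 33 of 181, where 21.6% of all genes rose and 16.2% fell by edgeR. The median was 0.07, against -0.035 with ribosomal protein gene scaling, where 35 rose and 43 fell (all genes 10.5% and 27.6%), and -0.013 with spike-in scaling, where 32 rose and 36 fell (all genes 8.54% and 16.3%). Of the 75 members that STM2457 raised without emetine, 44 also rose with emetine, and ZNF227 and ZNF530 fell. ZNF227 is named for this count after its values were seen. ZNF628 rose by 0.96 with emetine and by 1.01 without it, and ZNF574 by 0.78 with emetine and by 0.98 without it. ZNF460, at 57280051 to 57293569 on the plus strand, had 1.64, 1.30 and 1.39 CPM with STM2457 and emetine and 4.41, 5.17 and 4.70 CPM with emetine alone (log2 change -1.72, SE 0.17, edgeR adjusted p = 4.59e-10). ZNF112 had 3.35, 3.24 and 3.35 CPM with STM2457 and emetine and 10.1, 9.85 and 11.04 CPM with emetine alone (log2 change -1.64, SE 0.12, edgeR adjusted p = 6.12e-13). In both genes the 2 groups stood far apart.

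The STM2457 effect was higher with emetine than without it in 6 members and lower in 38 (21.0%), where 6.71% and 11.1% of all genes were by edgeR. Among ZNF genes on other chromosomes it was higher in 8 and lower in 69 of 234 (29.5%), so a lower effect was not particular to the members. With ribosomal protein gene scaling the effect was higher in 8 and lower in 25 (all genes 8.47% and 5.91%), and with spike-in scaling it was higher in 4 and lower in 14 (all genes 1.44% and 3.02%). ZNF14, ZNF324, ZNF324B, ZNF414, ZNF473 and ZNF490 made up the higher group. ZNF324B had 11.1, 10.4 and 9.96 CPM with STM2457 and emetine and 16.8, 19.9 and 17.1 CPM with emetine alone, so it was still lower with STM2457, but the difference between the effects was 0.79 (edgeR adjusted p = 2.49e-05). ZNF460 differed by -1.32 (SE 0.31, edgeR adjusted p = 0.00258), ZNF329 by -0.94, ZNF530 by -0.94 and ZNF112 by -0.90. ZNF329 had 10.3, 9.01 and 9.34 CPM with STM2457 and emetine and 8.68, 7.64 and 7.62 CPM with emetine alone, a log2 change of 0.26 against 1.20 without emetine. ZNF420 had 32.6, 30.0 and 33.1 CPM with both agents, 30.0, 29.2 and 29.4 CPM with emetine alone, 20.3, 20.5 and 21.5 CPM with STM2457 alone and 11.2, 12.5 and 11.96 CPM with DMSO. Its groups with and without STM2457 were far apart without emetine and touched with it.

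ZNF530, at 57599885 to 57612722 on the plus strand, changed direction in both settings. It had 7.18, 7.03 and 9.33 CPM with STM2457 and 6.30, 6.56 and 5.17 CPM with DMSO, a log2 change of 0.39 that became -0.000252 with spike-in scaling. With siRNA it had 18.1, 17.2 and 17.4 CPM with STM2457 and 21.8, 20.9 and 20.1 CPM with DMSO, a log2 change of -0.25. With emetine it had 14.8, 15.998 and 15.5 CPM with STM2457 and 20.1, 24.6 and 24.6 CPM without it, a log2 change of -0.58, against 7.56, 6.70 and 8.56 CPM with STM2457 alone and 5.46, 6.69 and 5.66 CPM with DMSO. STM2457 libraries were above DMSO libraries where the gene was low and below them where siRNA or emetine had raised it. ZNF530 was 1 of 11 members with a lower STM2457 effect in both settings, the others being ZNF227, ZNF283, ZNF420, ZNF551, ZNF559, ZNF561, ZNF576, ZNF614, ZNF776 and ZNF790. These are 40.7% of the 27 found with siRNA and 28.9% of the 38 found with emetine, where 21.0% of the 181 members tested in both were lower in the emetine difference. Of members that fell with STM2457 in each setting, 24 were shared, which is 66.7% of the siRNA list and 72.7% of the emetine list, where 18.2% of the members tested in both fell with STM2457 and emetine. The matching overlaps over all genes were not counted, so these shares do not set the members apart.

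**Figure D4:**
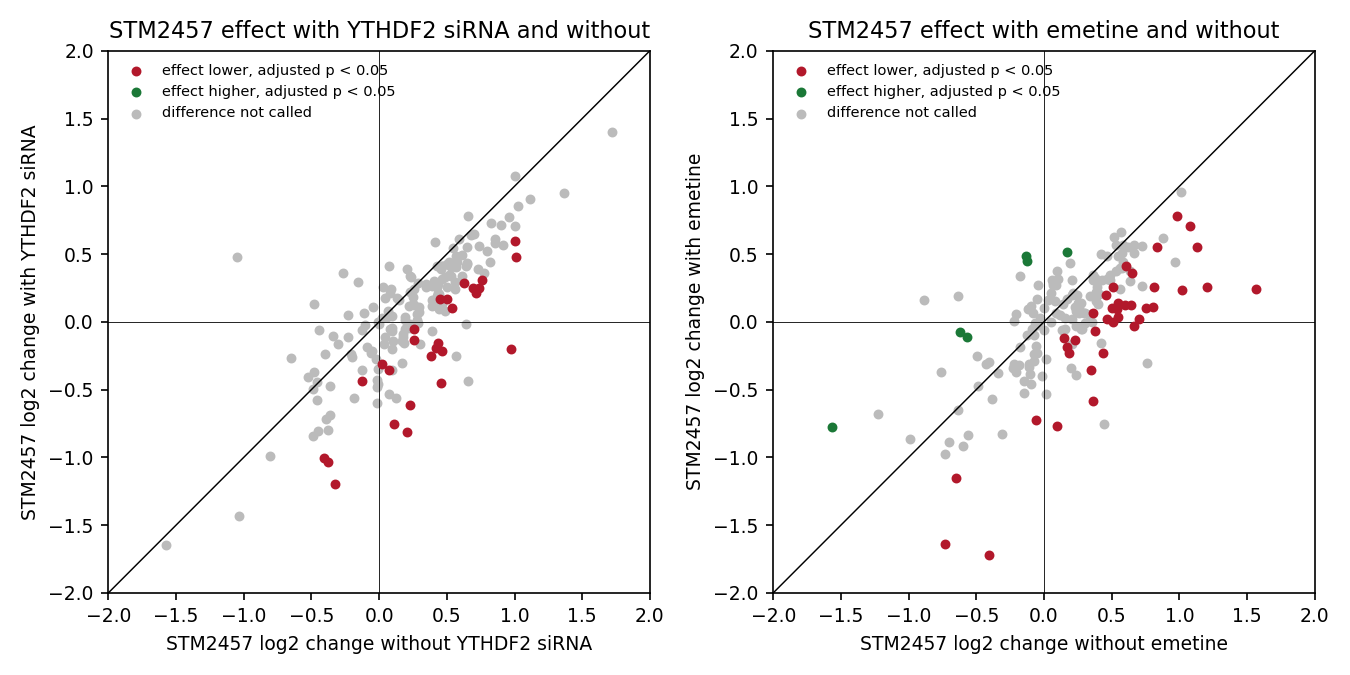
Log2 change with STM2457 for each member, with YTHDF2 siRNA or emetine on one axis and without it on the other, and members called in the test of the difference marked. Of the members tested, 27 have a lower STM2457 effect with siRNA and 38 with emetine, counts that become 5 and 25 with ribosomal protein gene scaling. That scaling calls 0.732% and 5.91% of all genes lower.

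Members with and without a KRAB pattern in the translated coding sequence differed in degree. The pattern was found in 133 of the 190 members, against 28.3% of ZNF genes on other chromosomes and 2.36% of other coding genes. With emetine 118 of 125 members with the pattern and 47 of 56 without it rose, with medians of 1.27 and 0.89. With YTHDF2 siRNA 82 of 132 with it and 38 of 56 without it rose, with medians of 0.54 and 0.37. With STM2457 for 6 h the order of the medians was the other way, 0.23 with the pattern and 0.42 without it. These are descriptions of a rough sequence pattern, and the differences between the subgroups were not tested. Across the 181 to 188 members tested, the number of fingers and the change had rank correlations of at most 0.17 in size, over genes measured in the same libraries.

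The siRNA change varied along the chromosome. The members fall into clusters separated by gaps of at least 1 Mb without a member, and the 7 clusters with at least 12 members are described, beside 33.1% of all genes higher and 29.3% lower with siRNA. In the cluster from 36182060 to 37817300, which holds ZNF146, ZNF461, ZNF850, ZNF420 and ZNF585A, 23 of 25 members rose with YTHDF2 siRNA and none fell, with a median log2 change of 0.80. In that from 43596392 to 45076588, which holds ZNF404, ZNF234, ZNF112 and ZNF180, 18 of 22 rose and none fell, with a median of 0.77. The last cluster, from 55476332 to 58481230, holds ZNF416, ZNF551, ZNF530, ZNF329 and ZNF324B, and 38 of its 51 members rose and 4 fell, with a median of 0.77. Between 7069444 and 9793180, 9 of 12 rose and 1 fell, with a median of 0.71, and between 51571298 and 53580269, 15 of 27 rose and 2 fell, with a median of 0.37. By contrast 2 of 13 rose and 3 fell in the cluster from 11483427 to 12640098, which holds ZNF440, with a median of -0.01, and 8 of 19 rose and 2 fell in that from 19668796 to 24129961, with a median of 0.26. With emetine these 7 clusters gave, in the order named, 25 of 25, 18 of 21, 47 of 50, 10 of 12, 23 of 26, 12 of 13 and 12 of 15 members higher. Of all members tested 91.2% were higher with emetine, and of all genes 33.9%, so these counts do not set the clusters apart. Clustered genes are close copies of each other, and reads that match several copies may be split or lost between them.

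All 7 transposon repressors of the fixed list that were tested rose with emetine, as did 165 of the 181 members tested and 33.9% of all genes, so this count does not set them apart. ZNF91, which silences SVA elements, averaged 1.61 ± 0.268 CPM with YTHDF2 siRNA and 0.901 ± 0.179 CPM with DMSO (SD, n = 3 each), a log2 change of 0.83, and rose by 0.89 with emetine (edgeR adjusted p = 0.0256). ZNF417 and ZNF587, close copies that repress HERV-K, rose by 1.29 and 0.95 with emetine, and ZNF649, ZNF765, ZNF675 and ZNF146 rose by 1.33, 1.13, 1.18 and 0.25. ZNF93 and ZNF808 did not meet the read rule, with at most 2 and 0 reads in a library. ZNF274, which brings SETDB1 to the 3′ ends of zinc finger genes themselves, averaged 27.6 ± 0.380 CPM with emetine and 11.8 ± 1.66 CPM with DMSO (SD, n = 3 each). With STM2457 for 6 h it averaged 20.6 ± 1.61 CPM against 14.4 ± 1.04 CPM with DMSO (SD, n = 3 each). ZNF350, a partner of BRCA1, averaged 7.51 ± 0.164 CPM with emetine and 2.37 ± 0.111 CPM with DMSO, and 5.75 ± 0.323 CPM with YTHDF2 siRNA and 3.16 ± 0.0595 CPM with DMSO (SD, n = 3 each). ZNF568, whose mouse counterpart silences a placental Igf2 transcript, rose by 0.97 with emetine.

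**Figure D5:**
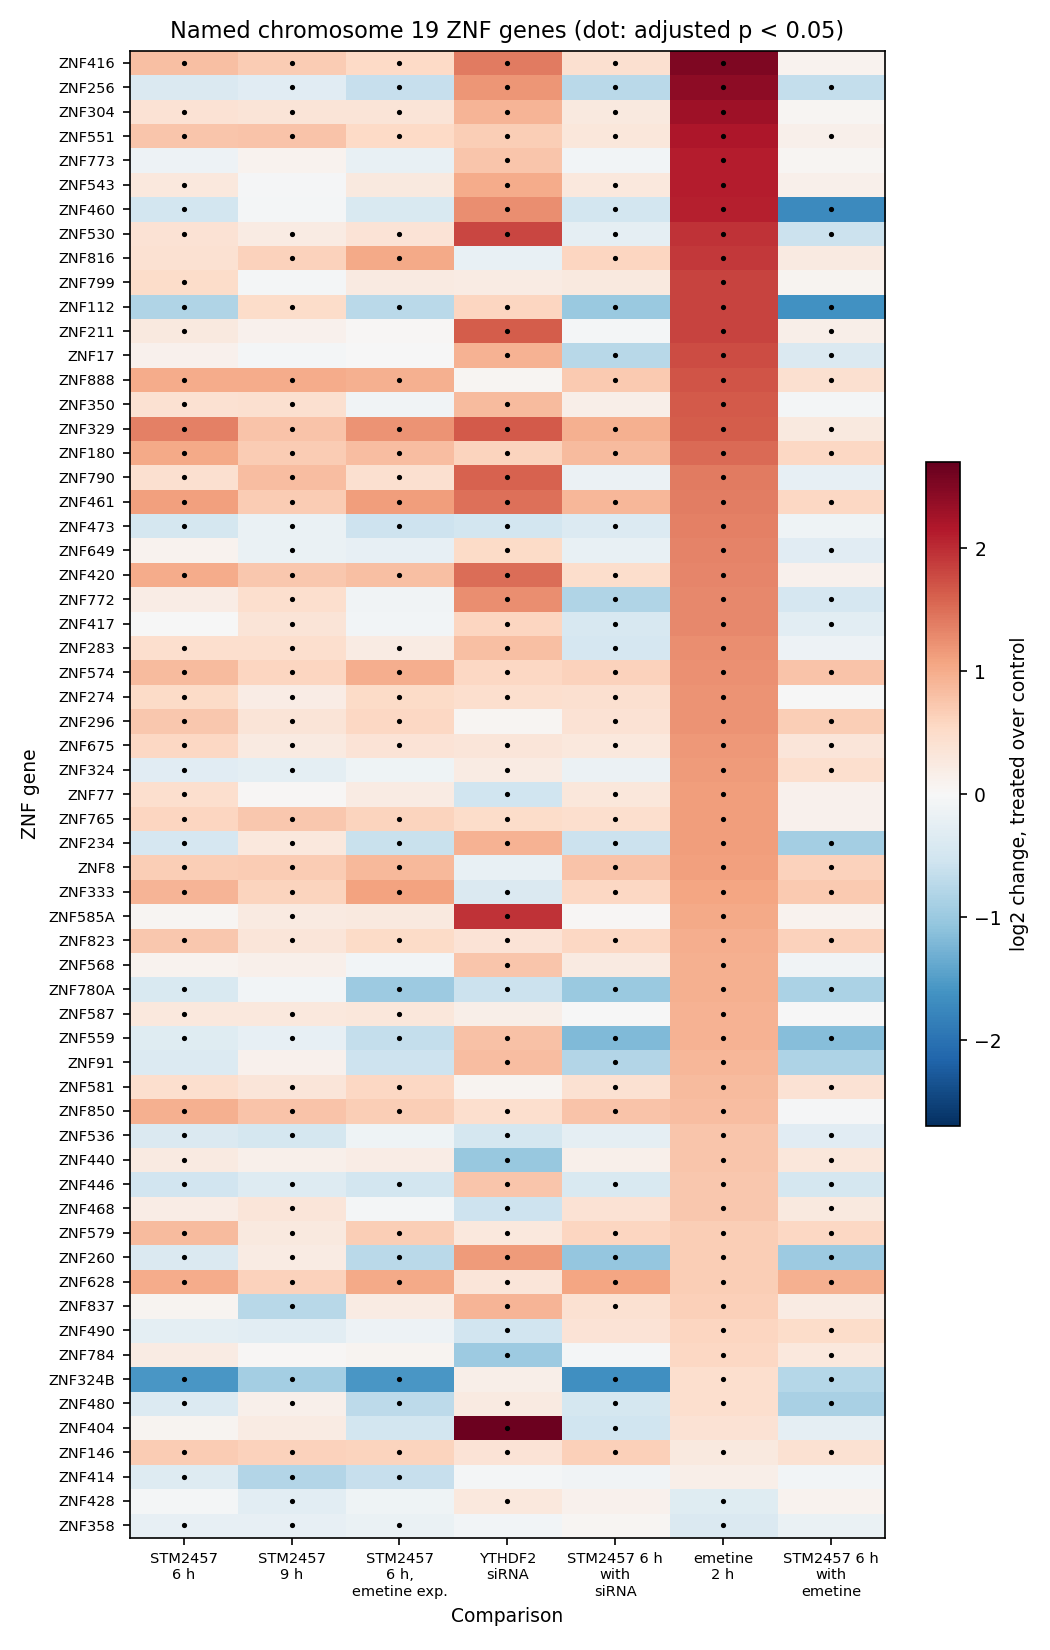
Log2 change (colour) of the members named by the rule (vertical) in the 7 comparisons of 2 groups (horizontal). Nearly all named members are higher with emetine, while ZNF324B is lower with STM2457 in all 5 STM2457 comparisons.

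Genes for proteins that work with KRAB zinc finger proteins moved in both directions. Of 30 such genes, 15 rose and 11 fell with emetine (all genes 33.9% and 28.3%), 14 rose and 7 fell with YTHDF2 siRNA (all genes 33.1% and 29.3%), and 10 rose and 10 fell with STM2457 for 6 h (all genes 22.9% and 22.1%). SETDB1, the methyltransferase of the complex, rose by 0.51 with STM2457 for 6 h, 0.57 at 9 h and 0.64 in the emetine experiment. TRIM28, the scaffold that binds the KRAB domain, fell by 0.30, 0.58 and 0.24 in the same comparisons and averaged 396 ± 2.90 CPM with YTHDF2 siRNA and 628 ± 23.4 CPM with DMSO (SD, n = 3 each). MORC2, an ATPase of the HUSH silencing pathway, also rose at 9 h and fell at 6 h in both experiments. It averaged 141 ± 5.07 CPM with STM2457 and 111 ± 2.25 CPM with DMSO at 9 h (SD, n = 4 each), and 34.6 ± 4.02 CPM with STM2457 and 68.4 ± 0.504 CPM with DMSO at 6 h (SD, n = 3 each). SUV39H1, a histone H3K9 methyltransferase, rose by 0.84 with STM2457 for 6 h and by 0.96 with YTHDF2 siRNA. The partner genes were not examined with ribosomal protein gene or spike-in scaling. For STM2457 at 6 h in the knockdown experiment those scalings moved the all-gene median by -0.26 and -0.37.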

How the data were processed

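RNA was poly(A)-selected and sequenced with a strand-specific TruSeq kit, per the labels' protocols. The authors deposited raw read counts per gene for each library, with ERCC spike-in counts in 24 of 32 libraries. The submitters' processing notes name the aligner STAR 2.7.3a, the counter featureCounts of Subread 2.0.0, SAMtools 1.9, the trimmers Trimmomatic and cutadapt 1.18 and 4.0, FastQC 0.11.8 and the build GRCh38.p12; how multi-mapping reads and strand were counted is not given in the sources used here.

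Counts were tested per experiment with edgeR 4.0.16 in R 4.3.3 (quasi-likelihood F test, TMM, filterByExpr, Benjamini-Hochberg over all genes, threshold 0.05). The 2 differences of STM2457 effects within an experiment were interaction terms, and 9 h was set against 6 h in a joint fit. Genes tested had passed the low-count filter, which left 2 to 9 members untested per comparison. Spike-ins stayed out of library sizes. Alternatives were DESeq2 1.42.0, RLE factors, no low-count filter, scaling on 85 ribosomal protein genes, spike-in scaling, a replicate block and leaving out each library. Labels do not say that replicates came from separate cultures, so the spread behind each p-value is that between these libraries and may be technical.

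Symbols came from a separate gene name list, or from GENCODE 29 where that list had none. For IDs outside GENCODE 29, gene type and chromosome came from RefSeq. Positions, exons and coding sequences came from GENCODE 29, which held 58542 of the 60662 IDs. Fingers and KRAB patterns were read from its translated coding transcripts, since no protein table was at hand. Members and lists were chosen with earlier results of these data known. Members were named by rule: the 6 largest rises and falls past the threshold with non-overlapping libraries and mean log2 CPM of at least 1 in each comparison, the 4 largest differences each way, the leaders over all 3 STM2457 experiments, the 3 highest levels and members with a set role. CPM used the gene reads left after the low-count filter as the total, adjusted by TMM factors.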

Additional observations from a re-analysis of the deposited data

Results flagged for a closer look

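In groups of 4 libraries, a single library stood apart for ZNF331 (0.389 CPM), ZNF581 (33.5 CPM) and ZNF675 (11.95 CPM) with STM2457 for 9 h and for ZNF816 (1.39 CPM) with DMSO for 9 h. About 1 in 20 groups is picked out this way by chance.

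The STM2457 effect differed between settings by a direct test. With YTHDF2 siRNA it was higher in 0 and lower in 27 members, with ZNF772 at -1.02, ZNF283 at -0.91, ZNF559 at -0.87 and ZNF17 at -0.87. With emetine it was higher in 6 and lower in 38, with ZNF324B at 0.79, ZNF490 at 0.62, ZNF324 at 0.57, ZNF414 at 0.54, ZNF460 at -1.32, ZNF329 at -0.94, ZNF530 at -0.94 and ZNF112 at -0.90. For 9 h less 6 h the signed difference was positive in 10 and negative in 35, with ZNF112 at 1.27, ZNF234 at 0.71, ZNF324B at 0.61, ZNF260 at 0.57, ZNF837 at -0.86, ZNF329 at -0.64, ZNF579 at -0.62 and ZNF799 at -0.58.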

How the results depend on the processing

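All-gene medians moved with scaling, by -0.26 (ribosomal protein genes) and -0.37 (spike-ins) for STM2457 at 6 h, 0.17 at 9 h, -0.17 and -0.13 for STM2457 in the emetine experiment, -0.19 and -0.31 with siRNA, 0.44 and 0.49 for emetine, and 0.47 for 9 h less 6 h; no spike-ins were counted at 9 h. With ribosomal protein gene scaling, counts of members became 42 higher and 34 lower (STM2457 6 h), 5 lower (9 h), 30 lower (STM2457, emetine experiment), 13 lower (YTHDF2 siRNA), 22 higher (STM2457 with siRNA), 5 lower (difference with siRNA), 0 lower (emetine), 35 higher (STM2457 with emetine), 25 lower (difference with emetine), and 104 higher and 0 lower (9 h less 6 h). With spike-in scaling they became 13 higher (STM2457 6 h), 4 lower (YTHDF2 siRNA), 4 higher (STM2457 with siRNA), 0 lower (difference with siRNA), 0 lower (emetine), 32 higher (STM2457 with emetine) and 14 lower (difference with emetine). Medians that reversed were STM2457 6 h at -0.0077 and -0.11, STM2457 with siRNA at -0.083 and -0.21, STM2457 with emetine at -0.035 and -0.013, and 9 h less 6 h at 0.38; ZNF358 reversed to 0.056 and 0.10 and ZNF428 to 0.11 and 0.16 with emetine. Members relative to all genes kept their direction in these cases, and beyond the scaling itself the cause was not tested. With YTHDF2 siRNA, 24.1% of all genes were lower with ribosomal protein gene scaling and 13.4% with spike-in scaling. With emetine these shares were 2.57% and 1.44%. For 9 h less 6 h, ribosomal protein gene scaling called 0.568% of all genes lower. In the difference with siRNA, ribosomal protein gene scaling called 0.732% of all genes lower and spike-in scaling called 0. DESeq2 called 1 member higher in that difference. The count of members higher with emetine was 164 to 179 over all alternatives.

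Leaving out 1 library gave 14 to 27 members lower and 0 to 2 higher in the difference with siRNA, and 22 to 43 lower for 9 h less 6 h. No pairing of libraries by replicate number was seen. Deviations of libraries with the same number correlated from -0.146 to 0.154, and those with different numbers from -0.178 to 0.212. With 3 or 4 libraries per group, a weak pairing could be missed. A replicate block moved no count by over 1.5 times, with 96 higher and 18 lower for STM2457 6 h, 120 and 20 for YTHDF2 siRNA and 165 and 2 for emetine. Depth limits the weakest members, whose level was 0.206 CPM on average at the low end, and intervals over 3 or 4 libraries are wide.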

Other observations

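Some large changes fell outside the rule for named members and were picked after their values were seen. ZNF547 changed by 2.61 and ZNF836 by 2.20 with emetine, and ZNF846 by 1.72 with STM2457 for 6 h, all on the log2 scale. ZNF66 changed by -1.43 with STM2457 and YTHDF2 siRNA relative to siRNA and DMSO, and ZNF700 by -1.15 with YTHDF2 siRNA. Each of these 5 genes had a mean log2 CPM under 1 in the fit concerned.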
